A study of Mus musculus with 18 samples.

Results

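The genes described here control whether a dividing progenitor starts another cell cycle or leaves it for good. They are the D-type cyclins Ccnd1 and Ccnd2, their kinase partner Cdk6, the kinase inhibitors Cdkn1a, Cdkn1b, Cdkn1c and Cdkn2c, the cyclin Ccng2, and the antiproliferative regulators Hbp1 and Btg2. They were found by gene symbol, and make up 10 of the 55335 genes measured. Single-nucleus RNA sequencing was carried out on nuclei from the forebrains of 9 mouse embryos. They were collected at embryonic day 14, a stage at which the cortex produces neurons from dividing progenitors. The embryos were wild type (WT, n = 3), heterozygous (Het, n = 3) or homozygous (KO, n = 3) for the Myt1l S710fsX allele, a frameshift in the gene of a transcription factor of postmitotic neurons. All came from matings of Het parents on a C57BL/6 background, and no group received a treatment. The mutation is carried in the germline, so it was present in every cell and at every earlier stage. Each embryo was sequenced in 2 runs, which were summed. In run 1 the genotype tag reads WT for all 9 libraries, against the titles. Groups were taken from the titles.

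Cyclin D binds Cdk4 or Cdk6, and the active kinase phosphorylates the retinoblastoma protein, which frees E2F factors to switch on genes of S phase. INK4 inhibitors such as Cdkn2c bind Cdk4 and Cdk6 directly, while the CIP/KIP inhibitors Cdkn1a, Cdkn1b and Cdkn1c act on cyclin and kinase complexes. In the cortex, radial glia divide to give further radial glia, neurons, or intermediate progenitors that express Eomes, which mostly divide once more into neurons. Cdkn1b and Cdkn1c are known for their part in the last division of cortical progenitors, and Btg2 has long served as a mark of progenitors about to produce neurons.

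After filtering, 194631 of 261143 barcodes remained (74.5%), with 14801 to 26065 nuclei and between 42858361 and 74124477 UMIs (unique molecules) per animal. The nuclei fell into 42 clusters, which took class names from fixed marker lists where these allowed it. The classes used here are radial glia-like (RG, 29645 nuclei), excitatory intermediate progenitor-like (ExIP, 18454), excitatory neuron-like (ExN, 53542), inhibitory progenitor-like (InhP, 7265), inhibitory neuron-like (InhN, 44570), Cajal-Retzius-like (2014), and microglia and macrophage-like (676). The leading genes of the last also included Abcc9 and Rgs5, genes of mural cells of blood vessels. In 9 unnamed clusters lay 19.4% of the nuclei. RG and ExIP nuclei were further divided into clusters that were high in G2/M markers (a summed level of at least 6000 CPM over 21 genes) and the rest. The rest need not be outside the cell cycle. Markers of S phase summed to 4377 CPM in cluster 11 of the other RG clusters, the highest of all clusters. In the other ExIP clusters they summed to 1186 CPM (cluster 30) and 407 CPM (cluster 25). Both InhP clusters were G2/M-high. Levels are given in CPM, the UMIs of a gene scaled to a total of 1000000 UMIs for that class and animal. The members were left out of the genes used for clustering. Among the kept nuclei, 1872 barcodes occurred more than once, 1714 of them in different animals, and all were kept.

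Myt1l RNA was present in all 9 animals. In ExN nuclei it was at 1951, 2222 and 2109 CPM in WT, 2242, 2485 and 2395 CPM in Het, and 2536, 2855 and 2606 CPM in KO (KO against WT, log2 fold change 0.37, SE 0.08, edgeR adjusted p = 0.0355). A frameshift need not remove the RNA, so this level checks no label.

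Hbp1 was the only member that passed the thresholds below in the main comparison of KO with WT. Its promoter is shown first for this reason. When the model also held the replicate number, Cdkn1c passed as well. The study had already listed Hbp1 among transcription factors with altered timing of expression in these mutants. MYT1L and its relatives bind DNA at a short core, AAGTT, or AACTT on the opposite strand. The RefSeq table of promoters (GRCm38.p6) held entries for 7 of the 10 members, and none for Ccnd1, Ccnd2 or Cdkn1c. The 250 bases before the RefSeq start of Hbp1, at chr12:31950246-31950495 on the minus strand, are printed 5′ to 3′ with the match in capitals. The gene annotation used for positions elsewhere (GENCODE) starts Hbp1 further upstream, so this window lies inside the span it gives for the gene.

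Hbp1: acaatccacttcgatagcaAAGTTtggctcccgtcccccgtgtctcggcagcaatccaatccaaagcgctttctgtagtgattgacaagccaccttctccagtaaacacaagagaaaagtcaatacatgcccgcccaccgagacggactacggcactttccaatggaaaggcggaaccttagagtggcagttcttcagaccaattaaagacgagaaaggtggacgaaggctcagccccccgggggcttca

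Of the 7 genes (9 promoter entries), Hbp1 alone held either 5-base form in this window, with 1 match. Across all 32851 promoter entries of the same length, 35.3% held it. The match in Hbp1 also lies within the longer form AAAGTTT, found on either strand in 4.20% of entries. The match is a description of letters in this window and says nothing of binding.

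The D-type cyclins and Cdk6, which drive the cell past the G1 checkpoint, were high in progenitors and lower in neurons. Ccnd1 (chr7:144929931-144939925, minus strand) had a median of 19.6 CPM in G2/M-high RG (lowest 11.2, highest 23.7 over the 9 animals), 17.3 CPM in G2/M-high ExIP (11.9 to 22.9) and 4.63 CPM in ExN (3.58 to 6.46). Each of the 9 animals had more Ccnd1 in G2/M-high RG and in both ExIP groups than in ExN. The level in InhP, with a mean of 11.9 CPM, fell between those of RG and InhN (4.73 CPM). In microglia and macrophage-like nuclei the Ccnd1 median was 23.1 CPM (11.4 to 64.0), on 53 UMIs. The clusters with the most Ccnd1 lay outside the named classes. A cluster led by Egfr and Otx2os1 had a mean of 58.5 ± 9.30 CPM (SD, n = 9), and a second, led by Ano1 and Otx2os1, had 47.3 ± 6.56 CPM.

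Ccnd2 (chr6:127125162-127152193, minus strand) was ordered differently from Ccnd1. Its median was 857 CPM in InhP (756 to 969), 453 CPM in G2/M-high RG (418 to 530), 245 CPM in G2/M-high ExIP (185 to 288) and 107 CPM in ExN (90.8 to 120). The InhP range did not overlap any other class. RG exceeded ExIP in all 9 animals, with a mean 1.99 times higher in G2/M-high RG than in the other ExIP clusters. The highest cluster was an InhP cluster led by 4930557F10Rik and Slc18a2 (cluster 31, 1032 ± 103 CPM), followed by an InhN cluster led by B020031H02Rik and Aldh1a3 (cluster 32, 936 ± 101 CPM). Cluster 32 was low in G2/M markers, at 883 CPM summed, against 9114 CPM or more in each G2/M-high cluster, so a high Ccnd2 level was not limited to G2/M-high nuclei. Its markers of S phase summed to 1447 CPM, against 296 to 815 CPM in the other InhN clusters. The G2/M-high RG cluster had 1419 CPM. B020031H02Rik and Slc18a2 were among the leading genes of both cluster 31 and cluster 32. Whether nuclei of cluster 32 were still cycling was not tested. Cajal-Retzius-like nuclei, which are postmitotic neurons of the cortical surface, kept 266 CPM (188 to 458), more than ExN in 9 of 9 animals.

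Cdk6 (chr5:3341485-3531008, plus strand) had the largest ratio between progenitors and excitatory neurons among the 10 genes. Its median was 379 CPM in G2/M-high ExIP (310 to 547), 346 CPM in G2/M-high RG (296 to 399), 138 CPM in the other ExIP clusters (108 to 154) and 9.77 CPM in ExN (7.84 to 11.97). The mean in G2/M-high ExIP was 41.1 times that of ExN, and 2.96 times that of the other ExIP clusters, in 9 of 9 animals each. On the inhibitory side the InhP mean was 11.5 times that of InhN. Microglia and macrophage-like nuclei were also high, with a median of 324 CPM (239 to 404). The highest cluster mean, 485 CPM, was that of the unnamed cluster 23, led by Egfr and Otx2os1. That cluster was not G2/M-high, at 1531 CPM of summed G2/M markers, and its markers of S phase summed to 3065 CPM.

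Among the inhibitors, Cdkn2c (chr4:109660876-109667189, minus strand), an INK4 protein, had its highest levels in G2/M-high clusters. Its median was 20.9 CPM in G2/M-high ExIP (16.6 to 26.7), 17.8 CPM in G2/M-high RG (13.8 to 21.5) and 19.4 CPM in InhP (13.4 to 25.1), and the ranges of the 3 groups overlapped. The other RG clusters had 7.72 CPM, the other ExIP clusters 2.01 CPM and ExN 0.573 CPM. The drop from G2/M-high ExIP to the other ExIP clusters was 9.47-fold by the means and was seen in 9 of 9 animals. An unnamed cluster led by Ano1 and Otx2os1, also G2/M-high, had a mean of 14.5 CPM. The summed G2/M markers themselves fell to between 218 and 297 CPM in ExN. The part of free RNA in the low neuronal levels of Cdkn2c and Cdk6 was not tested.

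Cdkn1c (chr7:143458339-143461050, minus strand) was ordered differently from Cdkn2c. Within RG and within ExIP it was lower in the G2/M-high clusters than in the others. Its median was 4.36 CPM in G2/M-high RG (2.49 to 6.22), 22.4 CPM in G2/M-high ExIP (13.7 to 30.8), 55.1 CPM in the other ExIP clusters (36.0 to 65.3) and 13.97 CPM in ExN (11.6 to 17.0). It was thus highest in ExIP nuclei low in G2/M markers, 2.42 times the G2/M-high ExIP mean and 3.87 times the ExN mean, in 9 of 9 animals each. The peak lay in cluster 25, led by Kif26b, Mfap4 and Eomes, with 60.3 ± 12.7 CPM. InhP and InhN had medians of 10.96 and 12.4 CPM, and InhN was the higher in 8 of 9 animals (means 11.1 and 13.1 CPM).

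Cdkn1b (chr6:134920401-134925513, plus strand) was broad. Its median lay between 76.5 and 82.4 CPM in G2/M-high RG, both ExIP groups and InhP, and the ranges of these groups overlapped. It was 57.6 CPM in the other RG clusters (50.02 to 67.1), 40.8 CPM in ExN (34.1 to 47.5) and 26.1 CPM in InhN (21.9 to 29.3). Every animal had more Cdkn1b in each of these progenitor groups that was compared than in the neurons of the same lineage.

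Cdkn1a (chr17:29090976-29100727, plus strand), a target of p53, was close to absent along both lineages, with class means between 0.525 and 1.54 CPM from progenitors to neurons. In those classes it rested on few UMIs, 112 in ExN and 12 in G2/M-high RG over all 9 animals. Cajal-Retzius-like nuclei stood apart with a median of 29.5 CPM (13.9 to 40.6, 189 UMIs), a mean 39.8 times that of ExN. Microglia and macrophage-like nuclei had a median of 9.42 CPM, on 23 UMIs.

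Ccng2, Hbp1 and Btg2 slow the cycle rather than drive it. Ccng2 was highest in inhibitory progenitors, Hbp1 in ExIP nuclei low in G2/M markers, and Btg2 in an Eomes-led cluster of those nuclei. Ccng2 (chr5:93267257-93276231, plus strand), an unusual cyclin associated with arrest and known as a target of FOXO factors, had its highest median in InhP, at 147 CPM (120 to 168), with no overlap with any other group. It followed at 105 CPM in G2/M-high ExIP and 76.1 CPM in the other ExIP clusters. In RG it was 55.1 CPM in the G2/M-high cluster and 26.2 CPM in the others, a 2.13-fold difference of means seen in 9 of 9 animals. InhN and ExN were near 50 CPM by the medians, 51.0 and 49.7 CPM, with overlapping ranges.

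Hbp1 (chr12:31926254-31950535, minus strand), an HMG-box repressor that interacts with the retinoblastoma protein, was highest in ExIP nuclei low in G2/M markers, with a median of 121 CPM (113 to 125). That range did not overlap any other class. G2/M-high ExIP had 77.5 CPM (66.4 to 92.5), both RG groups 60.7 and 63.1 CPM, ExN 54.9 CPM (46.9 to 72.3) and InhN 43.4 CPM (38.6 to 59.6). The cluster with the most Hbp1 was cluster 30, led by Eomes, Gadd45g and Neurog2, at 133 ± 8.49 CPM.

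Btg2 (chr1:134075170-134079120, minus strand) was highest in the same cluster 30, at 119 ± 23.5 CPM, where it was also among the 10 leading genes. By groups its median was 20.02 CPM in G2/M-high RG (14.3 to 26.3), 27.9 CPM in the other RG clusters (23.0 to 35.7), 45.7 CPM in G2/M-high ExIP (32.4 to 57.1), 69.02 CPM in the other ExIP clusters (49.0 to 87.8) and 5.25 CPM in ExN (4.10 to 6.01). The mean of the other ExIP clusters was 13.3 times that of ExN. Cdkn1c, Hbp1 and Btg2 were thus higher in the group of other ExIP clusters than in the G2/M-high one in 9 of 9 animals. Cdk6, Cdkn2c and Ccnd1 were lower in that group in 9 of 9. For Btg2 and Ccnd1 this did not hold in each cluster of the group. Btg2 had a mean of 42.5 CPM in cluster 25, against 45.4 CPM in the G2/M-high ExIP cluster and 119 CPM in cluster 30. Ccnd1 had a mean of 21.0 CPM in cluster 30, against 18.2 CPM in the G2/M-high ExIP cluster.

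**Figure D1:**
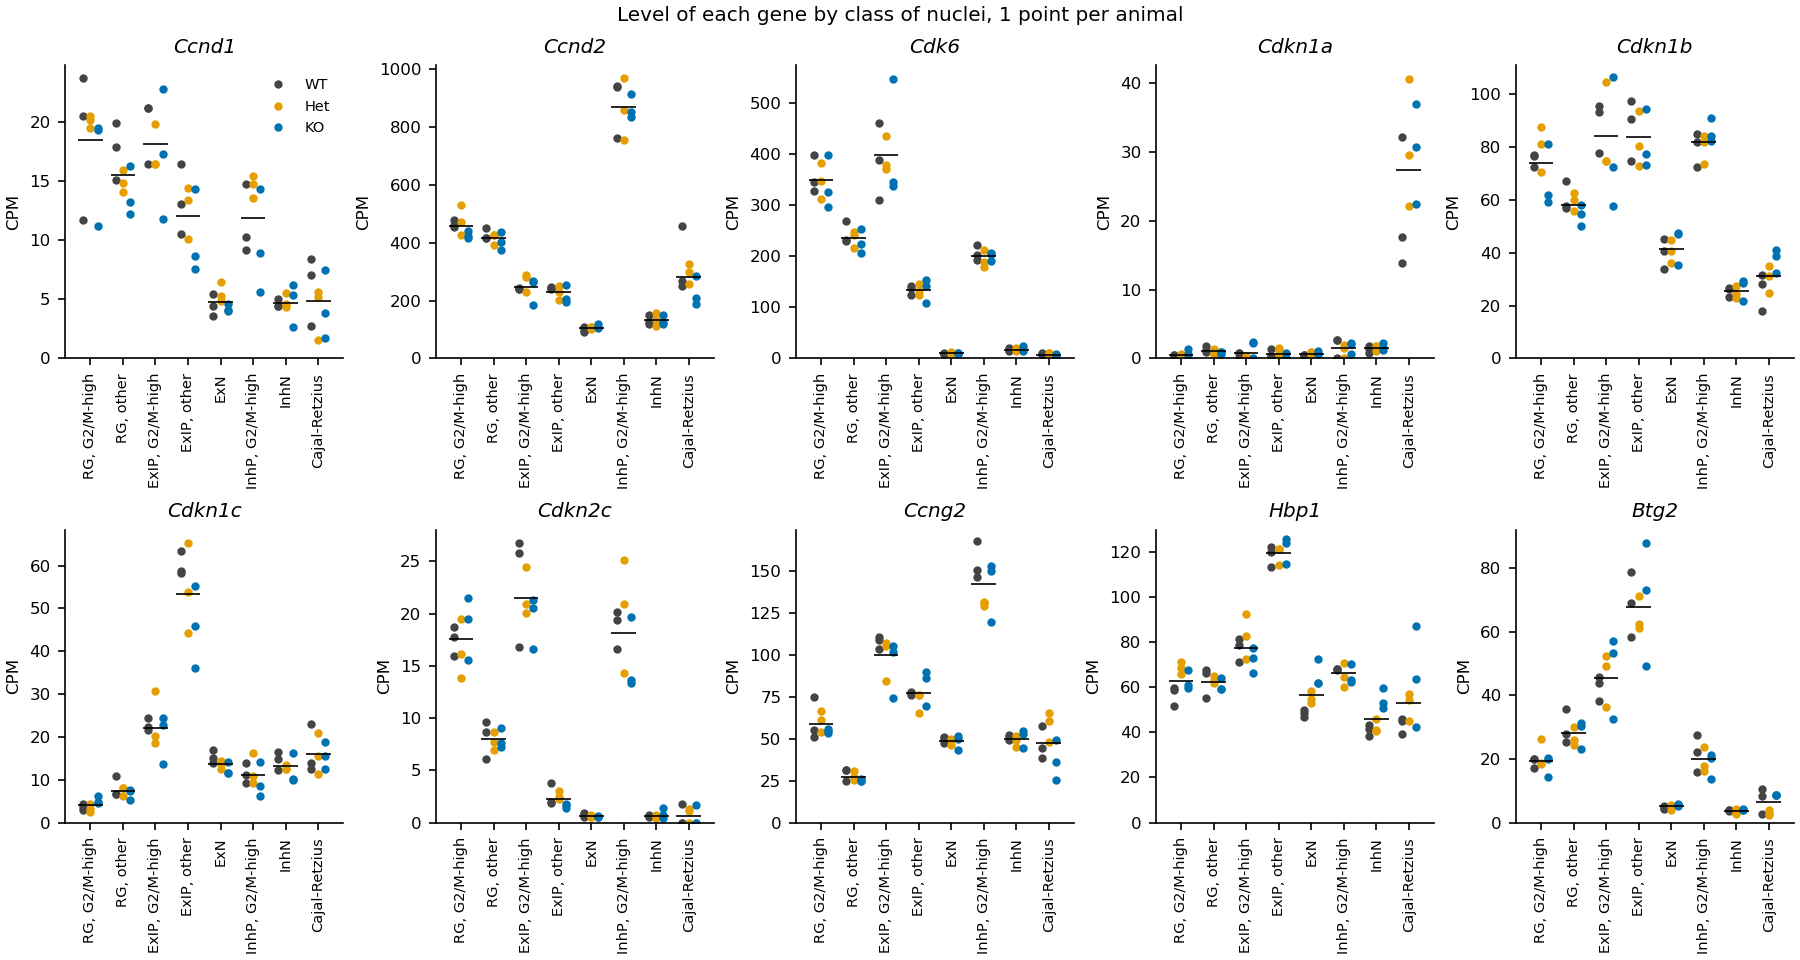
Level of each of the 10 genes (y axis, CPM, a scale of its own in each panel) in 8 groups of nuclei, with a point for each of the 9 animals coloured by genotype and a line at the mean. Among the groups shown, Cdk6 and Cdkn2c have their highest means in G2/M-high groups. Cdkn1c, Hbp1 and Btg2 are highest in the other ExIP clusters (the 55.1, 121 and 69.02 CPM medians), and Cdkn1a is high in Cajal-Retzius-like nuclei.

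**Figure D2:**
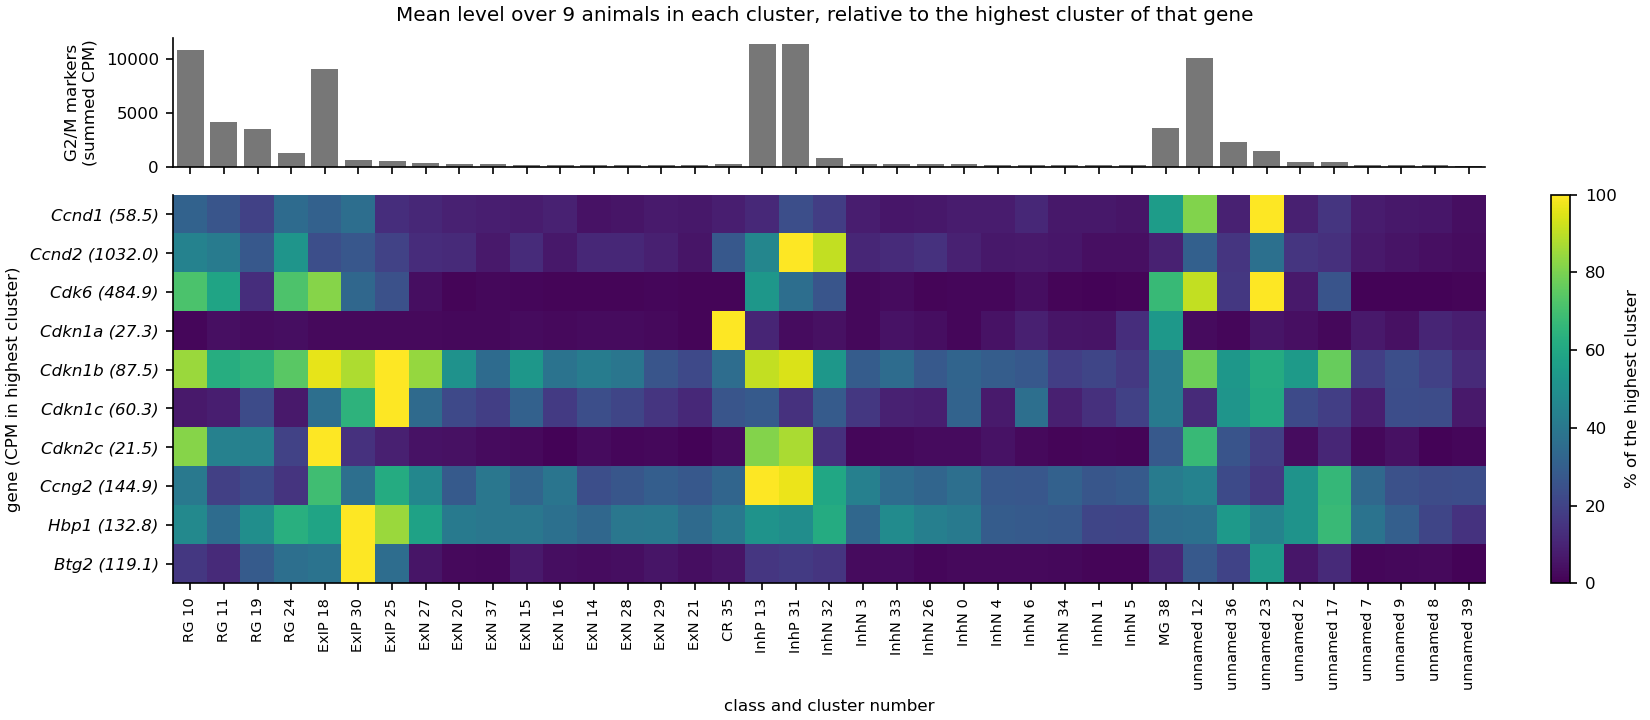
Mean level over 9 animals in 39 clusters with at least 20 nuclei in every animal, as a percent of the highest cluster of that gene, whose CPM stands beside the gene name. Bars give the summed G2/M markers in CPM, and clusters are ordered by class and then by those markers. CR stands for Cajal-Retzius-like and MG for microglia and macrophage-like. Hbp1 and Btg2 share their highest cluster (ExIP 30), and Ccnd1 and Cdk6 share an unnamed one (23).

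The genes with the most similar profile over the 39 clusters were sought among 7284 genes by Pearson's r of log2(CPM + 1). This is a description over clusters that share animals and libraries. Cdkn2c was closest to Lockd (r = 0.982), a noncoding RNA, and to Hmgb2 (0.980), a chromatin protein of dividing cells. Cdk6 was closest to Notch1 (0.948), the receptor that maintains progenitors, and Larp7 (0.944). Btg2 was closest to Stxbp4 (0.934) and Dcaf8 (0.928), Cdkn1b to H1f0 (0.932) and Strn3 (0.927), Ccnd2 to Xrcc5 (0.911) and Dck (0.903), and Ccnd1 to Gdi2 (0.909) and Ptges3 (0.908). Hbp1 was closest to Phf21a (0.904) and 2610307P16Rik (0.901). Lower values were reached for Cdkn1a with Ggt5 (0.859) and Gas6 (0.827), Ccng2 with 1600020E01Rik (0.832) and Setd1b (0.824), and Cdkn1c with Brwd3 (0.685) and Abhd2 (0.684). Between members, the highest value was that of Ccnd1 with Cdk6 (0.892) and the lowest that of Cdkn1a with Hbp1 (-0.29).

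The comparison of genotypes asks whether loss of MYT1L alters these regulators as progenitors become neurons. The counts of each class were added up within an animal and fitted with edgeR over all genes, and a call needed an adjusted p under 0.05 and a log2 fold change beyond 0.2. In KO against WT, 1 of the 57 pairs of member and class that could be tested was called, Hbp1 in ExN nuclei. Over all genes and the 7 classes 0.369% of tests were called, and in ExN 1.7% of the 18867 genes, so a single call among 10 genes is no result about the set as a whole. In ExN nuclei 4 of the 10 members had an unadjusted p under 0.05, Hbp1, Cdkn1a, Cdkn1c and Ccnd2, as did 13.7% of all genes. The median log2 fold change of the 10 members in ExN was 0.08, against -0.01 over all genes. When the model also held the replicate number (the replicate block), there were 3 calls, adding Hbp1 in InhN and Cdkn1c in ExN, against a share of 1.75% of all tests.

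Hbp1 in ExN nuclei was at 49.99, 46.9 and 48.7 CPM in WT, 53.01, 58.3 and 54.9 CPM in Het, and 62.0, 72.3 and 61.7 CPM in KO. All 3 KO animals lay above all 3 WT animals, and the Het animals lay between them without overlap with WT or KO. KO animals were above WT without overlap for 8.4% of all genes in this class, and Het animals for 4.22%. The share with all 3 genotypes apart was not computed. Hbp1 rose in KO by a log2 fold change of 0.46 (SE 0.08, edgeR adjusted p = 0.0143), and 1.01% of genes were called as higher. In Het the log2 fold change was 0.21 (SE 0.08, adjusted p = 1.00). The KO call was lost when WT replicate 2, WT replicate 3 or KO replicate 2 was left out (edgeR adjusted p = 0.0626, 0.0595 and 0.0565). The log2 fold change was 0.446 (SE 0.10) without WT replicate 2 and 0.455 (SE 0.10) without WT replicate 3. Without KO replicate 2, the animal with the highest level, the log2 fold change was 0.36. These fits did not hold the replicate number. With the replicate block and no animal left out, the log2 fold change was 0.45 (SE 0.06, edgeR adjusted p = 0.000101), where 7.37% of ExN genes were called. DESeq2 gave 0.45 (SE 0.10, DESeq2 adjusted p = 0.000363), where it called 447 of 41707 genes.

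The runs gave the same direction with different sizes. The share of all genes whose WT and KO animals lay apart was not computed for single runs. In run 1, which holds fewer nuclei, Hbp1 in ExN was 52.5 to 54.0 CPM in WT and 57.8 to 68.0 CPM in KO. The Het animals had 54.4, 64.6 and 54.7 CPM. Het replicate 2 thus lay above 2 of the 3 KO animals, so the separation of Het from KO seen in the summed runs did not hold in run 1. The log2 fold change there was 0.15 (SE 0.10) in Het and 0.23 (SE 0.10, edgeR adjusted p = 0.640) in KO. In run 2 the WT animals had 45.5 to 49.0 CPM, the Het animals 52.7 to 56.1 CPM and the KO animals 62.2 to 73.5 CPM, with a log2 fold change of 0.52 (SE 0.08, edgeR adjusted p = 0.008).

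In InhN nuclei Hbp1 was at 38.6, 43.4 and 41.3 CPM in WT, 41.2, 45.7 and 40.4 CPM in Het, and 52.8, 59.6 and 50.7 CPM in KO. The KO animals again lay above the WT animals without overlap (4.48% of genes in this class), while Het and WT overlapped. The log2 fold change of 0.44 (SE 0.10) was not called (edgeR adjusted p = 0.398). With the replicate block it was 0.43 (adjusted p = 0.00302), where 0.844% of genes in InhN were called. Without a filter on low counts it was called too (0.43, edgeR adjusted p = 0.013, with 0.276% of genes called). By run, the KO and WT animals overlapped in run 1, where KO replicate 1 had 46.4 CPM and WT replicate 2 had 49.9 CPM (log2 fold change 0.40, SE 0.15, edgeR adjusted p = 1.00). In run 2 the WT animals had 39.1 to 41.9 CPM and the KO animals 49.9 to 58.0 CPM (0.45, SE 0.09, edgeR adjusted p = 0.230). No member was called in InhN, where 1 of 10 had an unadjusted p under 0.05 (6.05% of all genes), and 0.0162% of all genes were called.

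In the progenitor classes the estimates from both runs together lay near 0. In RG nuclei Hbp1 was at 64.3, 54.1 and 64.8 CPM in WT and 59.3, 65.1 and 59.7 CPM in KO (log2 fold change 0.03, SE 0.08). In ExIP nuclei it was at 106, 107 and 109 CPM in WT and 110, 112 and 105 CPM in KO (0.04, SE 0.07). InhP nuclei had a log2 fold change of -0.03 (SE 0.12), with -0.42 (SE 0.23, edgeR adjusted p = 1.00) in run 1 and 0.08 (SE 0.13, adjusted p = 1.00) in run 2. Cajal-Retzius-like nuclei, with 42.3, 63.6 and 87.0 CPM in KO against 39.2 to 45.8 CPM in WT, had 0.51 (SE 0.24, edgeR adjusted p = 0.528) and overlapped. In microglia and macrophage-like nuclei, on few UMIs, it was 0.88 (SE 0.41, edgeR adjusted p = 0.854), where all KO animals lay above all WT animals (as for 4.1% of genes). The Het value there was 0.85 (SE 0.41), also above WT without overlap and without a call. The share of genes with Het above WT was not computed for this class.

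**Figure D3:**
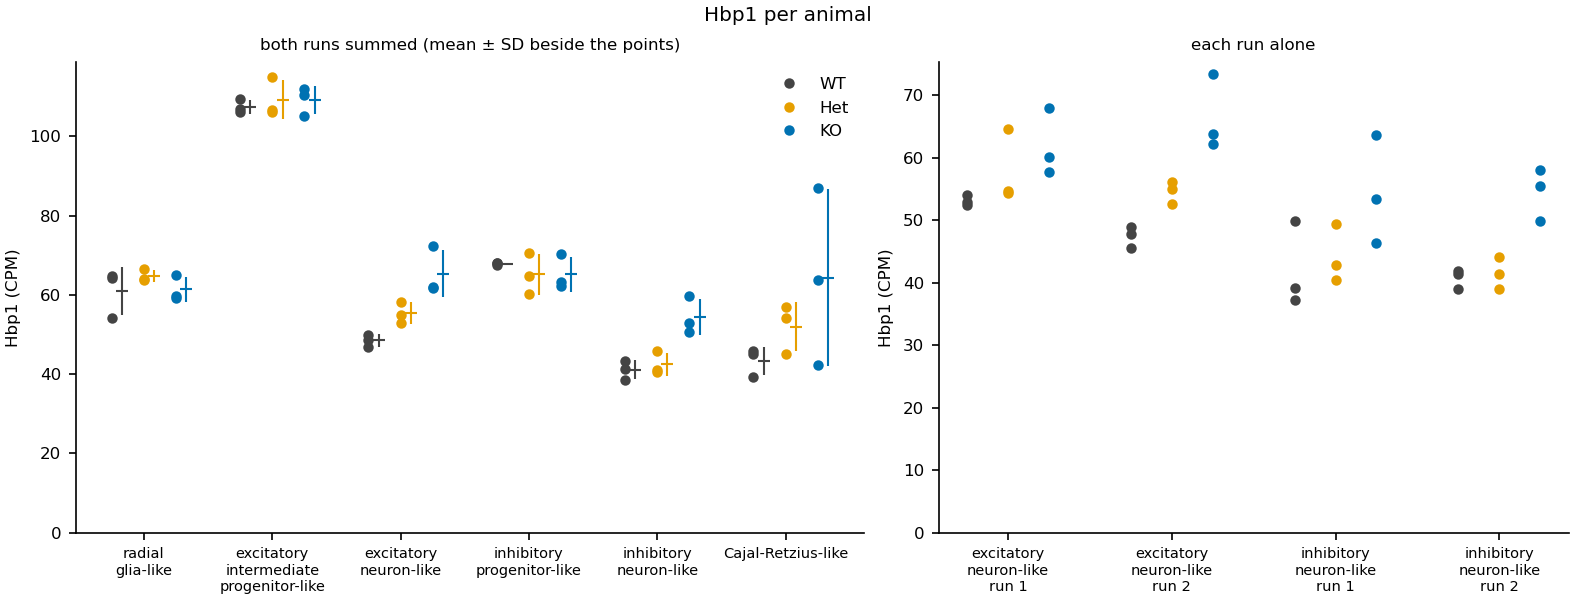
Hbp1 in CPM (y axis from 0) for each animal by genotype, at left in 6 classes with both runs summed and the mean ± SD beside the points, at right in ExN and InhN nuclei for each run alone. KO points lie above WT points in ExN nuclei in both runs (57.8 to 68.0 against 52.5 to 54.0 CPM in run 1), and the genotypes overlap in radial glia-like and intermediate progenitor-like nuclei.

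The difference between classes was tested on the log2 ratio of the classes within each animal with limma. Between ExN and InhN the KO effect on Hbp1 differed by 0.02 (SE 0.07, adjusted p = 0.990), and none of the 10 members was called (0.0392% of 17874 genes). No member had an unadjusted p under 0.05 there. Against the progenitors, a comparison added after the data were seen, the KO effect on Hbp1 was larger in ExN than in ExIP by 0.40 (SE 0.08, limma adjusted p = 0.0329) and larger than in RG by 0.42 (SE 0.08, adjusted p = 0.0324). The shares of genes called in those comparisons were 0.643% and 0.633%, and Hbp1 was the only member called. These comparisons re-use the values that gave the ExN call, so they are no independent evidence. They were not repeated by run, with the replicate block or with animals left out. In run 1 alone the Hbp1 log2 fold changes were 0.23 (SE 0.10) in ExN, -0.04 (SE 0.11) in ExIP and 0.03 (SE 0.15) in RG. Ccnd2 and Cdkn1b had differences of 0.28 to 0.30 and 0.24 to 0.29 with adjusted p of 0.244 to 0.402.

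Within the excitatory lineage the Hbp1 difference was followed over the 9 ExN clusters. Its log2 fold change in KO was above 0 in 9 of 9 and was called in 4. The clusters are parts of the same embryos, so they are not independent observations. The share of genes with the same sign in all of them was not computed. These were clusters 21 (led by Il1rapl2 and Hs3st2, 0.75, SE 0.17), 37 (Tfap2d, 0.72, SE 0.14), 28 (Gpr176 and Adamts17, 0.70, SE 0.12) and 29 (Hs3st3b1 and Hs3st4, 0.59, SE 0.12), with edgeR adjusted p from 0.00612 to 0.0267. The shares of genes called in those clusters were 3.52%, 1.78%, 0.755% and 0.938%, and in the remaining clusters 0.649% (14), 0.0186% (15), 0% (16 and 27) and 1.18% (20). The smallest value was that of cluster 27, led by Adamtsl3 and Nrp1 and the largest of the 9, at 0.10 (SE 0.10), without a call. In cluster 27 Hbp1 was at 74.5 ± 0.607 CPM in WT and 77.8 ± 7.35 CPM in KO (SD, n = 3), whereas in cluster 28 it was at 40.5 ± 4.88 CPM in WT and 64.7 ± 1.30 CPM in KO. Whether the clusters differ from each other was not tested.

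The share of the ExN class that lay in cluster 27 overlapped between genotypes. Cluster 27, with the highest Hbp1 level of the ExN clusters, held from 20.3 to 23.4% of ExN nuclei in WT embryos, from 21.4 to 25.8% in Het embryos and from 22.5 to 28.0% in KO embryos. With each of the 9 clusters weighted alike, Hbp1 ranged from 44.3 to 47.9 CPM over the WT embryos. It ranged from 49.3 to 54.4 CPM over the Het embryos and from 58.0 to 68.2 CPM over the KO embryos. The share of all genes that lay apart by this weighting was not computed. The 8 markers of intermediate progenitors, cells with more Hbp1, summed to 79.0 to 84.8 CPM in WT and 84.3 to 85.9 CPM in KO ExN nuclei. None of the 6 that could be tested was called. The 11 radial glia markers summed to 174 to 190 CPM in WT and 175 to 185 CPM in KO, with none called. The part of other cell types' RNA in the Hbp1 difference was not tested beyond these values.

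**Figure D4:**
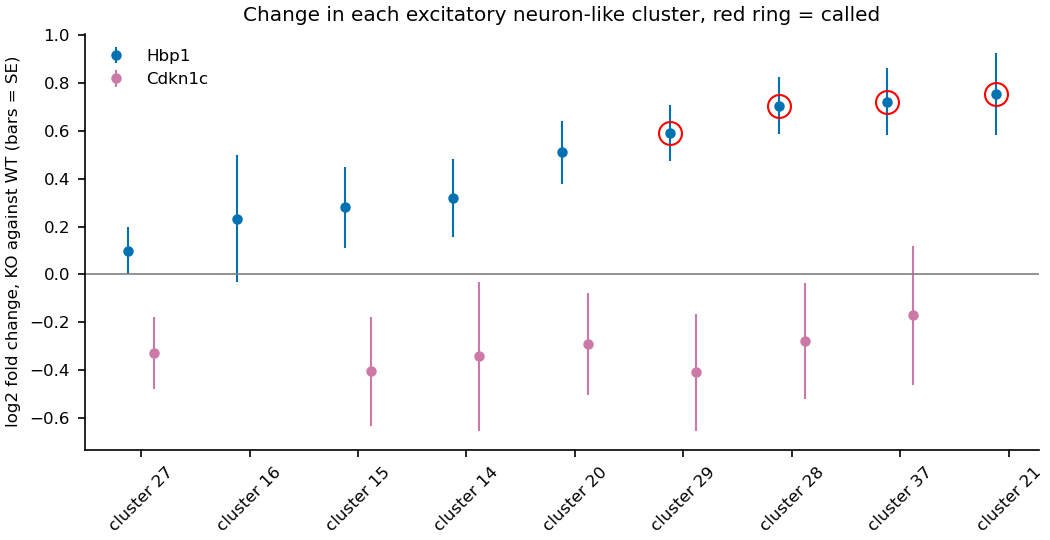
Log2 fold change of Hbp1 and Cdkn1c in KO against WT (y axis, edgeR, bars are SE) in each ExN cluster, ordered by Hbp1, with called values ringed. Hbp1 lies above 0 in all 9 clusters, from 0.10 to 0.75, and Cdkn1c below 0 in each of the 7 clusters where it was tested, none of them called. The clusters come from the same embryos and are not independent.

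Cdkn1c, one of the CIP/KIP inhibitors, gave estimates below 0 in KO in each class tested with both runs summed. In RG the estimate was -0.07 (SE 0.19), with 0.53 (SE 0.34) in run 1 and -0.22 (SE 0.23) in run 2. In ExN nuclei it was at 13.97, 15.0 and 17.0 CPM in WT, 12.6, 13.6 and 14.5 CPM in Het, and 11.6, 11.7 and 14.1 CPM in KO, and KO and WT overlapped. The log2 fold change was -0.28 (SE 0.11, edgeR adjusted p = 0.245), and it was not called. It was called with the replicate block (-0.28, SE 0.08, adjusted p = 0.0374), where 7.37% of all ExN genes were called. The values in single ExN clusters ran from -0.41 to -0.17. In ExIP nuclei, where the gene peaks, it was at 46.5, 51.3 and 53.1 CPM in WT and 39.1, 31.4 and 47.8 CPM in KO (-0.34, SE 0.16, edgeR adjusted p = 1.00), and the ranges overlapped.

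The other members in ExN nuclei gave values without a call. Cdkn1a was at 0.306 to 0.522 CPM in WT and 0.63 to 1.11 CPM in KO without overlap (log2 fold change 0.92, SE 0.35, edgeR adjusted p = 0.240), levels that rest on 112 UMIs over all animals. Btg2 was at 4.17 to 5.25 CPM in WT and 5.32 to 6.01 CPM in KO, without overlap by a narrow margin, as for the 8.4% of genes given above (0.28, SE 0.14, adjusted p = 0.430). Ccnd2 had 0.19 (SE 0.08, adjusted p = 0.305), Cdkn1b 0.14 (SE 0.13), Cdk6 0.03 (SE 0.13), Ccng2 -0.02 (SE 0.07), Ccnd1 -0.07 (SE 0.17) and Cdkn2c -0.46 (SE 0.30).

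In progenitors no member was called in KO, and no gene was called in RG, ExIP or InhP by DESeq2 or by edgeR as fitted here. EdgeR called 1 gene in RG, 7 in ExIP and 0 in InhP with the replicate block, and 20, 16 and 6 genes without a filter on low counts, none of them a member. As fitted here, 478 of 16473 genes in RG, 513 of 14405 in ExIP and 326 of 11756 in InhP had an unadjusted p under 0.05. Of the members, 1 of 9 had an unadjusted p under 0.05 in ExIP (Cdkn1c), and 0 of 9 in RG and InhP. Ccnd1 in RG was at 17.4, 19.7 and 16.8 CPM in WT and 11.9, 15.0 and 17.1 CPM in KO (-0.26, SE 0.13), and the ranges overlapped. Cdkn2c in ExIP, the inhibitor tied to the G2/M-high nuclei, was at 6.88, 7.05 and 9.23 CPM in WT and 6.44, 5.79 and 5.79 CPM in KO (-0.37, SE 0.21), without overlap (5.03% of genes in this class) and without a call. The share of G2/M-high nuclei among RG lay between 26.0 and 26.8% for WT, between 20.4 and 26.8% for Het and between 23.7 and 24.9% for KO. In ExIP it was 17.0 to 25.9% in WT and 17.8 to 25.8% in KO.

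Cajal-Retzius-like nuclei had 3 of 6 tested members at an unadjusted p under 0.05, as were 9.15% of all genes there, and none called, where 0.266% of genes were called. Ccnd2 was at 250, 458 and 266 CPM in WT and 188, 285 and 210 CPM in KO (log2 fold change -0.53, SE 0.18, edgeR adjusted p = 0.329), with WT replicate 2 above the other animals. Without a filter on low counts it was called (-0.52, edgeR adjusted p = 0.0201), where 0.363% of genes were called. Cdkn1b was at 18.0 to 31.8 CPM in WT and 32.4 to 40.9 CPM in KO, without overlap (7.07% of genes) and without a call (log2 fold change 0.55, SE 0.26, edgeR adjusted p = 0.536).

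In Het against WT no member was called in any class, and no gene was called (0%) by DESeq2 or by edgeR as fitted here. With the replicate block edgeR called 6 genes in ExN, 1 in InhN and 4 in microglia and macrophage-like nuclei, and without a filter on low counts 7 to 145 genes per class, again no member. In ExN 657 of 18867 genes had an unadjusted p under 0.05 by edgeR. The members below that unadjusted p were Hbp1 and Cdkn1a in ExN and Ccng2 in InhP. Cdkn1a in ExN, on few UMIs, was at 0.306 to 0.522 CPM in WT and 0.534 to 0.998 CPM in Het. It thus lay higher without overlap (4.22% of genes) and without a call (log2 fold change 0.88, SE 0.35). Ccng2 in InhP was at 147 to 168 CPM in WT and 129 to 132 CPM in Het, without overlap (4.52% of genes) and without a call (-0.23, SE 0.10, edgeR adjusted p = 1.00).

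**Figure D5:**
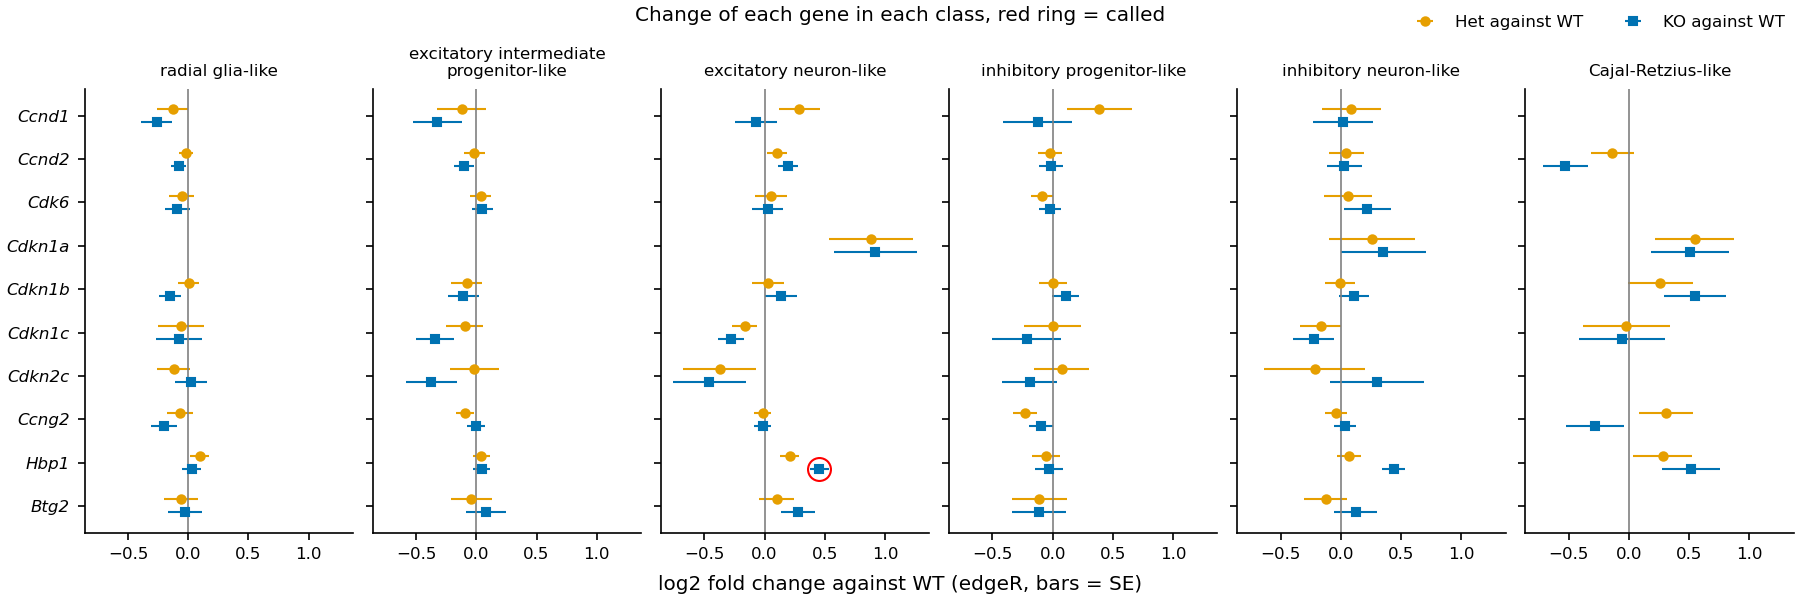
Log2 fold change of each gene against WT (x axis, edgeR, bars are SE) in 6 classes, for Het (circles) and KO (squares), with the called value ringed. Genes that could not be tested in a class have no point. Hbp1 in KO stands at 0.46 in ExN and 0.44 in InhN and near 0 in the 3 progenitor classes.

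The wider cell cycle machinery was read from 45 other regulators in 7 lists. In ExN nuclei 43 could be tested, with a median log2 fold change in KO of 0.02, and 1 was called. With 1.7% of all ExN genes called, 1 call among 43 is no result about these lists. It was Tfdp2, a dimerisation partner of E2F factors, at 88.0, 91.2 and 90.4 CPM in WT, 106, 114 and 96.4 CPM in Het, and 125, 122 and 118 CPM in KO. The 3 genotypes did not overlap. KO lay above WT for 8.4% of all genes, and the share with all 3 genotypes apart was not computed. The log2 fold change in KO was 0.46 (SE 0.07, edgeR adjusted p = 0.00799). In InhN it was 0.41 (SE 0.09, edgeR adjusted p = 0.320, and 0.00486 with the replicate block). DESeq2 called Tfdp2 in InhN (0.41, SE 0.10, DESeq2 adjusted p = 0.0381), where it called 25 of 40985 genes. In RG and ExIP the log2 fold changes of Tfdp2 were 0.10 (SE 0.07) and 0.04 (SE 0.07). Its KO effect in ExN exceeded that in ExIP by 0.41 (limma adjusted p = 0.00663). The excess over RG was 0.36 (SE 0.09, adjusted p = 0.106) and that over InhN 0.05 (SE 0.05, adjusted p = 0.923), neither of them called. The remaining lists, the D-type and E-type partners (0 of 5), other INK4 inhibitors (0 of 1), MuvB and late activators (0 of 6), BTG and TOB (0 of 4), FOXO and p53 (0 of 9) and degradation (0 of 5), held no call in ExN. Over all 7 lists, Tfdp2 included, 10 of the 43 had an unadjusted p under 0.05, against 13.7% of all genes in ExN. With the replicate block Lin54 (-0.27), Foxo3 (0.32), E2f3 (0.24) and Tob2 (0.39) were called as well, where 7.37% of all ExN genes were called.

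Hbp1 shares part of its locus with another gene. On the opposite strand it overlaps Cog5, a Golgi transport gene, over 11.4 kb or 46.9% of its length, and whether counting used the strand was not stated in any source used. Cog5 was at 173 CPM in ExN with a log2 fold change of 0.14 (SE 0.06, edgeR adjusted p = 0.284), smaller than that of Hbp1. The 3′ end of Hbp1 lies 2.00 Mb beyond the end of Myt1l on chromosome 12, and the genes around Myt1l were examined after these values were seen. Of 64 genes tested within 5 Mb of Myt1l in ExN nuclei, Hbp1 alone was called (1.56%, against 1.7% of all genes in ExN), and 9.38% had an unadjusted p under 0.05, against 13.7% of all genes. Of 60 tested in InhN, where only 3 genes in all were called, none was called, and 7 (11.7%) had an unadjusted p under 0.05, against 6.05% of all genes. The part of linkage to the mutated locus was not tested.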

How the data were processed

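The 10 members and the lists of other regulators were chosen with earlier results of these data known. The authors mapped reads to mm10 with ScaleRna and deposited one matrix of expected counts (estimated UMI counts per gene and nucleus) per library. Between 6.70 and 8.71% of entries per library were not whole. Per the labels, the submitters' processing notes also name Seurat 4.3.0, DESeq2 1.38.3 and Scanpy 1.12.0. The annotation release was not stated in any source used here. Gene positions come from GENCODE vM21 (GRCm38, the assembly of mm10).

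Nuclei were kept at 800 to 6000 UMIs and 300 to 3000 genes, with no more than 1% of UMIs from mitochondrial genes and a log(genes) to log(UMIs) ratio of at least 0.9, and the 5% with the highest Scrublet doublet scores per library were removed. Clustering used 3000 variable genes without the members, 50 principal components, 20 neighbours and Leiden resolution 1.5, which was chosen after cluster markers were seen (scanpy 1.11.5). Clusters were named from marker lists where at least 3 markers were detected (10 CPM, 1.5-fold), by a rule completed after the data were seen, and the names need not match the study's.

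Counts were summed per animal and class over both runs and rounded. edgeR 4.0.16 (filterByExpr, TMM, quasi-likelihood F-test, two-sided, Benjamini-Hochberg over all genes of a class) was fitted on genotype over 9 animals, in 7 classes with at least 20 nuclei per animal. limma 3.58.1 tested differences between classes on log2 CPM (prior count 2). DESeq2 1.42.0, other scaling, filters, runs, nuclei and left-out animals were alternatives. P-values rest on the spread between embryos of the same genotype, pooled over all 9 animals, with 3 embryos per genotype.

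The replicate numbers pair the samples: deviations from the genotype means correlated at 0.253 to 0.645 in ExN for the 9 pairs with the same number, and at -0.47 to 0.20 for different numbers. The main fits did not hold the replicate number, so this shared variation stayed in their spread. Calls that change with the replicate block are given beside them. On simulated data for ExN, edgeR recovered 64% of genes changed 1.5-fold and 80% of those changed 2-fold among 18904 genes. For InhN it recovered 44% and 86% among 18479 genes, and limma recovered 30.9% and 62.5% of such differences between ExN and InhN among 17817 genes. Unchanged genes called numbered 5, 4 and 9. The simulated animals and classes were independent, with a common spread for all genes and no pairing by replicate number. The rates thus hold for that setting only, and changes below 1.5-fold were not simulated. All members are reported. Similar genes were the 2 with the highest r (at least 50 CPM in some cluster), and other regulators were named when called.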

Additional observations from a re-analysis of the deposited data

Results flagged for a closer look

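The KO effect on Hbp1 was called as different between excitatory neuron-like nuclei and the progenitor classes named below. The tests of the difference itself were added after the data were seen. The effect was larger in excitatory neuron-like than in excitatory intermediate progenitor-like nuclei by 0.40 on the log2 scale (SE 0.08, limma adjusted p = 0.0329). It was larger than in radial glia-like nuclei by 0.42 (SE 0.08, limma adjusted p = 0.0324). The KO effect on Tfdp2 was larger in excitatory neuron-like than in excitatory intermediate progenitor-like nuclei by 0.41 (SE 0.06, limma adjusted p = 0.00663). Against radial glia-like nuclei the difference for Tfdp2 was 0.36 (SE 0.09, limma adjusted p = 0.106) and was not called. These tests re-use the values that gave the calls in excitatory neuron-like nuclei, so they are no independent evidence. They were not repeated by run, with the replicate block or with animals left out. With 3 animals per genotype no group was searched for a distant animal.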

How the results depend on the processing

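The count of member and class pairs called in KO against WT was 1, and became 3 without a filter on low counts (0.548% of all tests), 3 with the replicate block, 0 in run 1 alone, and 0 to 1 when each animal was left out in turn. Fits of the 9 excitatory neuron-like clusters, which count member and cluster pairs and cannot be set against that count, gave 4 calls, all of them Hbp1, where 0 to 3.52% of genes per cluster were called. The count of members whose KO effect differed between classes was 0 against inhibitory neuron-like nuclei and 1 (Hbp1) against excitatory intermediate progenitor-like or radial glia-like nuclei. In Het it stayed at 0 under every alternative run. Hbp1 in excitatory neuron-like nuclei lay between 0.23 and 0.52 over 19 alternatives and lost its call in 4 of them, run 1 alone and without WT replicate 2, WT replicate 3 or KO replicate 2. The cause was not tested. The replicate block changed no member's call beyond the added Hbp1 in inhibitory and Cdkn1c in excitatory neuron-like nuclei. Of 2266 alternative values over 124 results, 2251 kept direction and side of the threshold, or were uncalled changes within 0.2, of which 187 changed sign. The sign also turned, without a call, in run 1 for Btg2 in excitatory neuron-like (-0.032) and Cdkn1c in inhibitory neuron-like nuclei (0.0087). It turned with 1 animal left out for Ccng2 in microglia and macrophage-like nuclei without WT replicate 3 (-0.55 to 0.22 over left-out animals in Het, -0.78 to 0.097 in KO), for Cdk6 (-0.012 to 0.41) and Cdkn2c (-0.11 to 0.38) in inhibitory neuron-like nuclei without KO replicate 1, and for Cdkn1c in inhibitory progenitor-like nuclei without WT replicate 2 (-0.52 to 0.020). Depth limits Cdkn1a and Cdkn2c in neurons, and every member in microglia and macrophage-like nuclei.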
